A study of Mus musculus with 18 samples.

Results

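The regions described here were H3K27ac peaks of the Arid1a conditional knockout (cKO) hippocampus that lay on an H3K4me3 peak of the same genotype and overlapped no wild-type (WT) H3K27ac peak by even 1 bp. Of the 24065 peaks in the cKO H3K27ac list, 8767 (36.4%) met this rule and are called new promoter-type peaks below. Another 9286 cKO H3K27ac peaks lay on H3K4me3 and overlapped a WT H3K27ac peak (shared peaks), 5130 were new but away from H3K4me3, and 882 were shared and away from H3K4me3. Members were thus selected on the peak calls of the 2 H3K27ac lists and the cKO H3K4me3 list, so the heights of these peaks are given as a description, with no test.

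All mice were C57BL/6, and the tissue was hippocampus throughout. Chromatin immunoprecipitation sequencing (ChIP-seq) was made at 3 weeks of age from 1 WT and 1 cKO library for each of H3K4me3, H3K27ac, H3K27me3 and input. RNA sequencing of polyA RNA covered 2 WT and 2 cKO libraries at P21 (3 weeks after birth) and, at embryonic day 16.5 (E16.5), 3 libraries of each genotype. The labels name neither the Cre driver nor the cells in which Arid1a was deleted, and do not say whether a library came from 1 animal or from pooled animals. Arid1a encodes a subunit through which BAF, the mammalian SWI/SNF remodeller, contacts DNA. Its RNA was 215 and 205 CPM in the WT and 110 and 89.2 CPM in the cKO libraries at P21. CPM is a count scaled by library size to parts in 1000000. The cKO value was lower in all libraries at both ages (P21 log2 change -1.08, adjusted p 0.00507; E16.5 log2 change -0.64, adjusted p 0.032; edgeR quasi-likelihood test).

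The H3K27ac libraries held 19291198 tags in WT and 19288471 in cKO, yet the WT list had 13006 peaks over 5.17 Mb and the cKO list 24065 peaks over 11.6 Mb. The H3K27me3 lists differed in the same direction, with 4124 WT and 15659 cKO peaks, and the H3K4me3 lists held 25145 and 28234. With 1 library per genotype, genotype and library cannot be told apart in any peak comparison. When the cKO H3K27ac list was cut to as many peaks as the WT list, by the authors' q-value, 3944 peaks still met the rule. Intervals given for shares of peaks are Wilson 95% intervals and cover counting error only. In P21 RNA the summed level of the hippocampal CA field pyramidal neuron markers ranged from 1877 to 1890 CPM in WT and from 1893 to 2393 CPM in cKO, and that of the dentate granule neuron markers from 820 to 907 and from 449 to 523 CPM. Choroid plexus and ependyma markers, which belong to tissue next to the hippocampus, summed to 1211 to 1445 CPM in WT and 1069 to 3654 CPM in cKO libraries. At E16.5 these ranged from 55 to 4849 CPM in WT and from 10.3 to 2522 CPM in cKO, and meningeal fibroblast markers from 401 to 2569 and from 88.1 to 251 CPM. The embryonic libraries thus differed widely in these marker sums, and the cause was not tested. In such bulk tissue, fewer cells of a type and less RNA per cell cannot be told apart.

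H3K27ac is an acetyl mark laid down by the CBP and p300 enzymes on nucleosomes beside active promoters and enhancers. H3K4me3 marks nucleosomes at the starts of genes that have CpG-rich promoters, whether or not these genes are strongly transcribed, so a promoter can carry H3K4me3 with or without much H3K27ac. At an active start the mark lies on the nucleosomes on either side of an open gap where the polymerase assembles.

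To show promoter sequence at new peaks, 8 promoters are printed, each as the 250 bases before the RefSeq start (GRCm38.p6), on the gene's strand and 5′ to 3′. Ppm1a and Pnn are promoters under 2 of the strongest new peaks, and the other 6 belong to genes whose RNA differed at P21. For 6 of the 8 the new peak reached into the printed stretch, while at Msmo1 (peak chr8:64733208-64733535) and Grm2 it lay wholly on the gene side of it. The 8 promoters were chosen after these values were seen, and none of the stretches overlaps a gene in the RefSeq gene table. Capitals mark matches on either strand. The TATA element was searched as TATAAA. The NF-Y element was searched as CCAAT. The GC box of SP and KLF factors was searched as GGGCGG, the ETS element as CCGGAAG and the CRE as TGACGTCA. In Grm2 an NF-Y match and a GC box match overlap.
Ppm1a: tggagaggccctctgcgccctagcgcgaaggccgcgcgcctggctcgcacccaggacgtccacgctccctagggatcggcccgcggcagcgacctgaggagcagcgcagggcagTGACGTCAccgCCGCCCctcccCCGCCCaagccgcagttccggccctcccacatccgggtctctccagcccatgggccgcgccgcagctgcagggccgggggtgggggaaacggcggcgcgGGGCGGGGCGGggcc
Pnn: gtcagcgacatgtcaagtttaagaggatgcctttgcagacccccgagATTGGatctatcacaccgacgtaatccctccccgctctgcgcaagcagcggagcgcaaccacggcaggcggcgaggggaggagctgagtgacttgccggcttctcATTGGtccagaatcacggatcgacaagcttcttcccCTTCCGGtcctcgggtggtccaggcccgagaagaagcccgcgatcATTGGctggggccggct
Fos: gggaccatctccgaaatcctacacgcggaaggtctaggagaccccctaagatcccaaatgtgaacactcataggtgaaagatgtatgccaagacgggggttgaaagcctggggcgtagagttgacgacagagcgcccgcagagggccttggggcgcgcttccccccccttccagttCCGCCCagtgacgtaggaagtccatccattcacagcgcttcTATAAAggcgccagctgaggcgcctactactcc
Zfp36: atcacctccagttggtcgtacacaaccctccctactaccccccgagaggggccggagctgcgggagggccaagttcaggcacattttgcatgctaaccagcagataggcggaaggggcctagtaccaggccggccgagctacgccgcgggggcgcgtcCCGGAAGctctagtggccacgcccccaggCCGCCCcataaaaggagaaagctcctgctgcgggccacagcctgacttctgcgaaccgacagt
Idi1: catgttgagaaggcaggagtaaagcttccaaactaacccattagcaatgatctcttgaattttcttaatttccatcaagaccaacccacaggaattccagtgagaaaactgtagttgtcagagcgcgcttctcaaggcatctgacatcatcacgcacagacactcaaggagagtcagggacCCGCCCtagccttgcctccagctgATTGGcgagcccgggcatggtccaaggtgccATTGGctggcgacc
Msmo1: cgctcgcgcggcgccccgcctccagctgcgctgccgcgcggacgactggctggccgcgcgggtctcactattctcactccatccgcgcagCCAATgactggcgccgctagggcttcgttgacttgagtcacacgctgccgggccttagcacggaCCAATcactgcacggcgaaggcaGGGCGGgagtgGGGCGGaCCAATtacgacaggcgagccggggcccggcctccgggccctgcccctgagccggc
Sc5d: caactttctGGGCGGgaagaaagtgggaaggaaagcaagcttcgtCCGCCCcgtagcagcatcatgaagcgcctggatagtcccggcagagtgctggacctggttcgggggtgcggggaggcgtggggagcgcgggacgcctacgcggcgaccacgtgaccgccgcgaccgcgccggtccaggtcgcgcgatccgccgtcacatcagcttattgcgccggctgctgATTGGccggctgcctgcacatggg
Grm2: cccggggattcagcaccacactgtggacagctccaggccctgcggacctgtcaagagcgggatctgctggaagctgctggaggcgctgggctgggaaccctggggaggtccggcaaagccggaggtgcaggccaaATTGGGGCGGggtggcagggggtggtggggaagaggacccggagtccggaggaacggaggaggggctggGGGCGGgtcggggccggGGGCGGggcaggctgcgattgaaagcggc
In the same order, the printed stretches are Ppm1a chr12:72760961-72761210 on the plus strand, Pnn chr12:59066669-59066918 plus, Fos chr12:85473640-85473889 plus, Zfp36 chr7:28379229-28379478 minus, Idi1 chr13:8885356-8885605 plus, Msmo1 chr8:64733579-64733828 minus, Sc5d chr9:42264301-42264550 minus and Grm2 chr9:106656110-106656359 minus. Ppm1a has 4 GC box matches, 1 CRE match and 31 CG dinucleotides. Pnn has 3 NF-Y matches, 1 ETS match and 20 CG dinucleotides. Fos is the only 1 of the 8 with a TATA match, and it has 15 CG dinucleotides. The 3 cholesterol synthesis genes Idi1, Msmo1 and Sc5d have 2, 3 and 1 NF-Y matches and 7, 32 and 30 CG dinucleotides.

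The same letters were counted in all RefSeq promoter windows, which run from 250 bases before to 50 bases after a start. Of 32851 windows, 3168 overlapped a new promoter-type peak, and these were rich in CG. The rule requires cKO H3K4me3, which 18785 of all windows lack, so the rule itself bears on contrasts with all windows. Their median GC content was 63.3%, against 52.7% over all windows. The ratio of observed to expected CG dinucleotides had a median of 0.80, against 0.38, and lay above 0.6 in 80.2% of them, against 35.8% of all windows. Windows under shared peaks were a little richer still (median 65.3% GC and ratio 0.84), and windows with cKO H3K4me3 but no H3K27ac peak a little poorer (60% and 0.71). A GC box match stood in 68.7% of windows under new peaks and in 35.7% of all windows. ETS letters stood in 20.2% against 8.86%, CRE letters in 4.01% against 1.79% and AAGATGGCG (YY1) in 3.06% against 1.4%. TATA letters were found in 4.7% of windows under new peaks and in 13.6% of all windows, and TGANTCA (AP-1) in 3.69% and 7.81%. NF-Y letters were near the share of all windows, at 33.7% and 37.4%, as was the E-box CAGCTG (15.4% and 16.3%), while the E-box CACGTG stood in 11% against 7.15%. Under shared peaks most of these shares were similar, with a GC box in 71.3%, ETS letters in 19%, TATA letters in 4.6% and YY1 letters in 4.15%. Windows with cKO H3K4me3 but no H3K27ac peak had a GC box in 64.4%, ETS letters in 13.7% and YY1 letters in 1.56%. They had TATA letters in 7.66%, NF-Y letters in 42.3% and CACGTG in 10%. Such matches describe letters in a window and do not show that a factor is bound.

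The new promoter-type peaks were low and narrow compared with the shared ones. Their fold enrichment over input, as the authors' peak caller gave it, had a median of 5.62 with an interquartile range of 4.89 to 6.61, and ran from 2.64 to 14.8. Shared peaks at H3K4me3 had a median of 7.93 and new peaks away from H3K4me3 a median of 4.96. Median lengths were 309, 594 and 248 bp. The median pileup at the summit was 16.1 in new promoter-type and 23.7 in shared peaks. The rule bears on height itself, so these differences are no finding.

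The 12 highest new peaks on the promoter of a named gene had folds of 11.6 to 14.8. The highest, 14.8, was at Gpbp1, which encodes the GC-rich promoter-binding protein vasculin (chr13:111490282-111490764, 483 bp). Its summit was 317 bp before the start, and the nearest WT H3K27ac peak began 0.411 kb away. Next were Map2k2, the MAP kinase kinase MEK2 (fold 13.2, chr10:81105308-81106300), and Ppm1a, a metal-dependent protein phosphatase (13.2, chr12:72760472-72761116). A single peak of fold 13.2 overlapped promoter windows of both Nae1, part of the enzyme that activates NEDD8, and Car7, a carbonic anhydrase (chr8:104534090-104534595). Rex1bd (13), Lrch3 (12.9), the mitochondrial methionine sulfoxide reductase gene Msrb2 (12.9), Pnn, which encodes the splicing-associated protein pinin (11.9), Wdtc1 (11.9), the zinc finger genes Fiz1 (11.7) and Zfp784 (11.6), and the pyruvate dehydrogenase phosphatase regulator Pdpr (11.6) completed the set. All 12 lay on H3K4me3 peaks of both genotypes, with folds of 9.31 to 20.1 in the cKO and 5.81 to 18.8 in the WT list.

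The RNA of none of the genes at these 12 peaks passed the test at P21 or E16.5 (edgeR). Of all tested genes, 2.81% were higher and 3.91% lower at P21, and 0.0118% and 0.112% at E16.5. The lack of a call in a set this small is thus no finding. Ppm1a, whose promoter is printed above, had 168 and 174 CPM in the WT and 166 and 170 CPM in the cKO libraries at P21. Pnn had 61.5 and 76.7 CPM in WT and 88.7 and 72.8 CPM in cKO. The groups overlapped for both genes. The largest P21 change in this set was that of Lrch3, with 31.1 and 33.6 CPM in WT and 25.7 and 17.4 CPM in cKO (log2 change -0.58, SE 0.19, adjusted p 0.108, edgeR).

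Membership turned on a few bases for a small number of peaks. The new peaks at Plpp6, a phospholipid phosphatase (fold 6.34), and Coq10a, a coenzyme Q-binding protein (7.27), lay 1 and 3 bp from a WT H3K27ac peak. Just outside the rule, the cKO peaks at the prolylcarboxypeptidase gene Prcp (fold 7.93), the proteolipid gene Gpm6b (5.71) and the thrombospondin gene Thbs3 (4.76) overlapped a WT peak by 2 bp. In all, 136 new peaks lay under 50 bp from a WT peak, and 137 shared peaks overlapped one by under 50 bp. The median gap from a new promoter-type peak to the nearest WT H3K27ac peak was 14868 bp, and 2952 of the new peaks (33.7%) had one within 1 kb.

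The H3K4me3 peak beneath divided the set into 2 kinds. In the first kind, 6684 new peaks (76.2%) lay on a cKO H3K4me3 peak that held no WT H3K27ac peak, although 990 of these (14.8%) had one within 1 kb. In the other kind, 2083 new peaks (23.8%) lay on an H3K4me3 peak that carried a WT H3K27ac peak elsewhere along it. The new peaks sat on 7614 of the 28234 cKO H3K4me3 peaks (27%): 6496 of these held 1 new peak, 965 held 2 and 153 held 3 or more, with at most 6.

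Most new promoter-type peaks lay near a gene start. The summit was within 1 kb of a RefSeq start for 59.8% of them, against 70.4% of shared peaks at H3K4me3 and 7.37% of new peaks away from it. Only starts with a promoter window were used, which exist for 79.9% of RefSeq protein-coding genes. The 249 new peaks on the autosome without windows were counted as not near a start. The shares within 1 kb are thus minimum values. Over 100 bp bins, new peaks were most frequent 100 to 200 bp after the start (11.1% of them) and again 300 to 200 bp before it (5.03%). Between these crests, the 100 bp just before the start held 1.72%. Of the summits within 1 kb, 66.5% were downstream of the start, against 75.2% for shared peaks. The upstream side was more frequent where the same H3K4me3 peak already held a WT H3K27ac peak. Of those 1151 new peaks 46% were upstream, against 30% of the 4096 on H3K4me3 peaks without one. The rule bars overlap with that WT peak, and shared peaks lay mostly downstream. The rule thus bears on this split, which is given as description only. At Ppm1a, Pnn and Gpbp1 the new summit lay 324, 281 and 317 bp before the start, with a WT H3K27ac peak within 0.253, 0.315 and 0.411 kb.

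**Figure D1:**
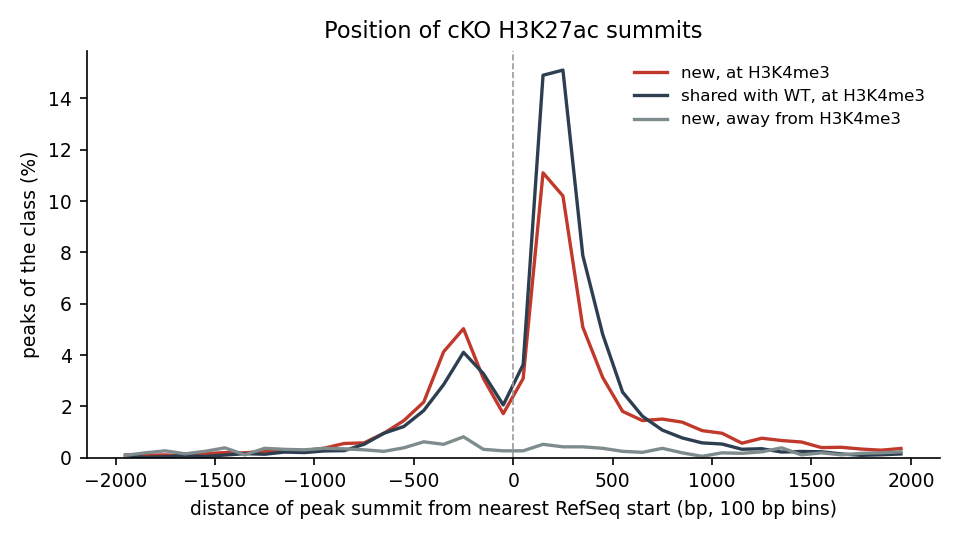
Share of cKO H3K27ac peak summits by distance from the nearest RefSeq start that has a promoter window, in 100 bp bins. Classes are new peaks at H3K4me3, shared peaks at H3K4me3 and new peaks away from H3K4me3. Both promoter classes have crests on either side of the start and a dip just before it, where new peaks reach 1.72%, and the downstream crest is 11.1% for new and 15.1% for shared peaks.

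The new peaks stood mainly on H3K4me3 peaks of middle and upper strength. When the cKO H3K4me3 list was divided by its own fold into 5 bins of about equal size, H3K4me3 peaks with a new H3K27ac peak and no shared one made up 10% of the lowest bin, then 12.9%, 24.4% and 33.2%, and 24.4% of the highest. H3K4me3 peaks with only shared H3K27ac peaks rose along the bins from 4.22% to 55.2%, and those without any H3K27ac peak went from 85.5% to 4.42%. In the cKO H3K4me3 list the median fold was 11.5 under new and 13.8 under shared peaks, and in the WT list it was 11.3 and 14.9. H3K4me3 peaks of WT also overlapped 7942 of the new peaks (90.6%, interval 90 to 91.2%), against 98.3% of shared peaks and 2.79% of new peaks away from cKO H3K4me3. WT H3K4me3 was not part of the rule. The cKO H3K4me3 list was, so the contrast with new peaks away from it is no independent result.

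**Figure D2:**
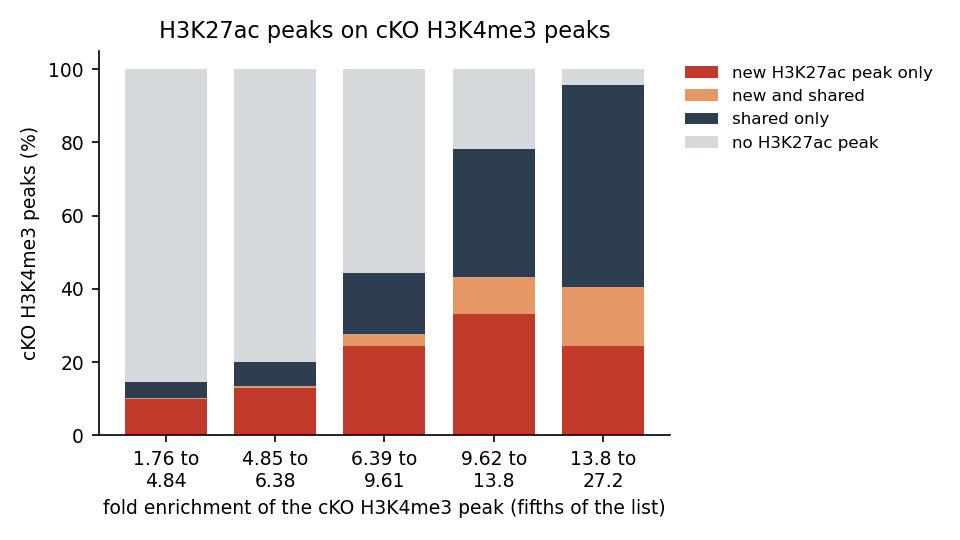
Share of cKO H3K4me3 peaks that hold only new H3K27ac peaks, new and shared ones, only shared ones or none, in 5 bins of the H3K4me3 fold enrichment from low to high. The share with only new peaks goes from 10% in the lowest bin to 33.2% in the fourth bin and 24.4% in the highest.

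Of the genes with a new peak on the window, 47 had no WT H3K4me3 peak there. By another measure, a new peak can itself overlap no WT H3K4me3 peak, whether or not the window holds one. Of such peaks on the promoter of a named gene, the 5 with the highest cKO H3K4me3 fold are given here. They were at Samd8 and Ormdl3, both concerned with sphingolipid synthesis (H3K4me3 folds 19.4 and 17.5), and Srp14, a part of the signal recognition particle (14.9). The others were at Rrp36, a ribosomal RNA processing factor (12.4), and Agap2, a GTPase-activating protein of neurons (11.7). Their summits lay 227 to 349 bp before the start, and 4 of the 5 had a WT H3K27ac peak within 0.31 kb. RNA of none of these 5 genes passed the test at either age (edgeR), which is no finding in a set this small.

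New promoter-type peaks overlapped H3K27me3, the mark of Polycomb repression, more often than shared ones did. A cKO H3K27me3 peak lay under 874 of them (9.97%, interval 9.36 to 10.6%), against 4.91% (4.49 to 5.37%) of shared peaks at H3K4me3 and 1.03% (0.791 to 1.35%) of new peaks away from H3K4me3. In the WT H3K27me3 list, 108 new peaks (1.23%) and 5 shared peaks (0.0538%) had an overlap. Of the new peaks, 105 overlapped H3K27me3 in both genotypes, 769 in cKO only and 3 in WT only. Over all cKO H3K27ac peaks the cKO H3K27me3 share was 5.79%. By promoter window, cKO H3K27me3 overlapped 220 of 2854 genes with a new peak and 116 of 4210 with only a shared peak. Of all 27025 genes with a window, 1960 had it and no new peak. The rule bars WT H3K27ac from new peaks, while shared peaks all have it, and the part of this in the contrast was not tested. The cKO H3K27me3 list is also the longer one, and the part of list length in these counts was not tested. On H3K4me3 peaks without a WT H3K27ac peak the cKO H3K27me3 share was 11.3%, and on those with one it was 5.66%. H3K27ac and H3K27me3 cannot stand on the same histone tail, and in bulk tissue such an overlap can come from different cells, alleles or neighbouring nucleosomes, which these data cannot tell apart.

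**Figure D3:**
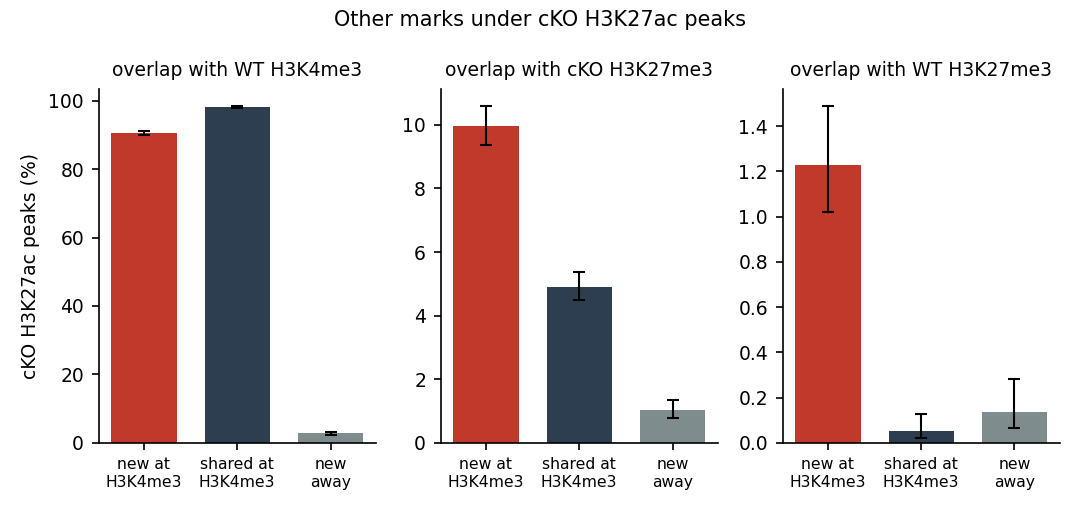
Share of cKO H3K27ac peaks that overlap a WT H3K4me3, cKO H3K27me3 or WT H3K27me3 peak, for new peaks at H3K4me3, shared peaks at H3K4me3 and new peaks away from H3K4me3; error bars are Wilson 95% intervals, and the 3 panels have different vertical scales. New peaks at H3K4me3 stand at 90.6%, 9.97% and 1.23%.

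The members with the strongest cKO H3K27me3 on the promoter of a named gene were at Ankrd63 (H3K27me3 fold 13.3), Nr2e1, the neural stem cell nuclear receptor TLX (13.2), Sox2, the stem cell transcription factor (12.9), Grin2c, an NMDA receptor subunit (11.9), and Prkcd, protein kinase C delta (11.7). Their H3K27ac folds were 3.97 to 7.27, and those at Sox2 (3.97), Nr2e1 (4.09) and Prkcd (4.63) were below the first quartile of the set, 4.89. For all but Ankrd63 the member also overlapped a WT H3K27me3 peak, with folds of 3.85 to 5.18. Sox2 RNA was 30.9 and 28.5 CPM in WT and 42.6 and 41.3 CPM in cKO at P21, so the groups did not overlap (log2 change 0.50, SE 0.11, adjusted p 0.0416, edgeR). That call was lost when either WT library was left out. RNA of the other 4 genes did not pass the test at either age, which is no finding in a set this small.

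On the X chromosome, 182 of the 294 cKO H3K27ac peaks at H3K4me3 were new (61.9%, interval 56.2 to 67.3%). Over the autosomes the share was 48.3%, and single autosomes ranged from 44.5% to 50.2%. The labels do not give the sex of the animals behind each library.

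Genes were assigned to a new peak when it overlapped one of their promoter windows. This held for 2782 of the 8767 new peaks (31.7%) and gave 2854 genes, of which 2488 were protein-coding and 366 long non-coding. Windows of 2 or more genes were overlapped by 293 peaks. RNA values could be matched for 2683 of the genes (94%), and 2565 were tested at P21 after the filter on low counts.

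After the filter on low counts, genes with a new promoter-type peak did not show a higher share of raised RNA than genes at large. At P21, 68 of the 2565 tested were higher in cKO (2.65%), where 2.81% of all 17407 tested genes were, and 75 were lower (2.92%), where 3.91% of all genes were (edgeR, adjusted p under 0.05). Their median log2 change was 0.016, beside 0.009 over all genes tested. Groups that did not overlap were as frequent as elsewhere: 28.1% of these genes had both cKO libraries above both WT libraries, beside 28.2% of all genes, and 27.2% had both below, beside 27.9%. Genes with only a shared peak were higher in 1.49% and lower in 3.25%, and genes with cKO H3K4me3 and no H3K27ac peak in 2.83% and 4.09%. The 1580 genes without a WT H3K27ac peak within 1 kb of the window had 2.72% higher and 2.78% lower.

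The counts depended strongly on single libraries and on the filter. Whenever 1 library was left out, the shares of all tested genes rose or fell together with the shares of these genes. Without the filter on low counts, which left 31706 genes in the test, 123 of these genes were higher and 156 lower (4.6% and 5.84%, beside 2.9% and 3.87% of all genes), so that both shares were above those of all genes. Without cKO replicate 1 there were 205 higher and 204 lower genes (7.98% and 7.94%, beside 6.88% and 8.99% of all genes), and without cKO replicate 2 there were 88 and 114. Without WT replicate 1 the counts were 27 and 41, and without WT replicate 2 they were 17 and 35 (0.66% and 1.36%, beside 0.755% and 1.6% of all genes). Upper-quartile scaling, which moved the median of all genes to 0.06, gave 81 higher and 55 lower genes (3.16% and 2.14%, beside 3.27% and 2.98% of all genes). In 5 equal bins of the H3K27ac fold at the promoter, each of 513 genes, 11 to 26 genes were lower and 12 to 18 higher, and the median log2 change stayed between 0.00 and 0.02.

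**Figure D4:**
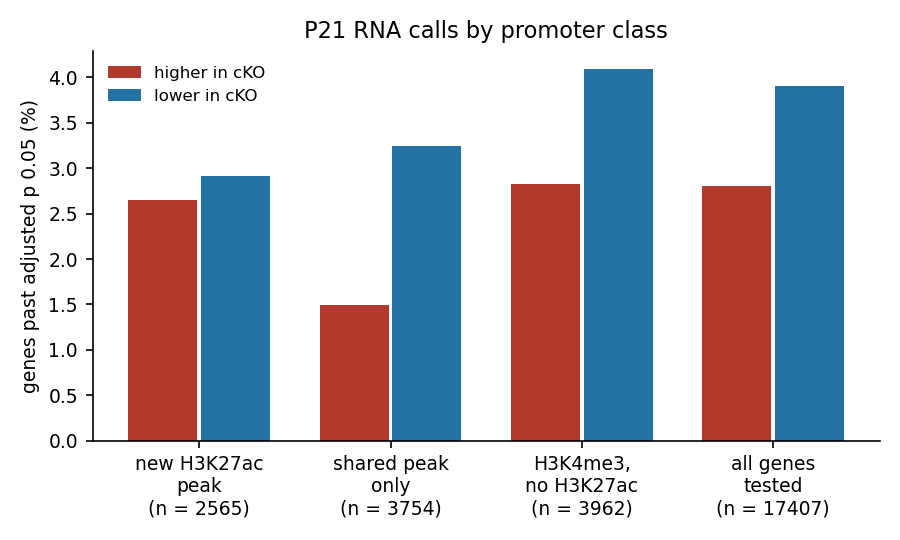
Share of tested genes past an adjusted p of 0.05 (edgeR) that were higher or lower in cKO at P21, for genes with a new H3K27ac peak on the promoter window, a shared peak only, cKO H3K4me3 without H3K27ac, and all genes tested. Genes with a new peak stand at 2.65% higher and 2.92% lower, beside 2.81% and 3.91% of all genes tested.

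Of the genes higher at P21, 10 are named here by size of change. Igfbp3, which encodes a secreted binding protein for insulin-like growth factors, had 21.2 and 19.2 CPM in WT and 70.1 and 69.6 CPM in cKO libraries at P21. The groups lay far apart (log2 change 1.79, SE 0.11, adjusted p 0.00049, edgeR). Zfp36, which encodes the mRNA decay factor tristetraprolin, had 6.21 and 5.42 CPM in WT and 17.7 and 18.9 CPM in cKO. Both cKO libraries were above both WT libraries (log2 change 1.65, SE 0.16, adjusted p 0.00306). Its promoter, printed above, has 1 GC box and 1 ETS match, and its new peak was 1345 bp long. The new peaks at Igfbp3 and Zfp36 overlapped cKO H3K27me3 peaks of fold 6.92 and 4.51. Txnip, the thioredoxin-interacting protein gene, had 38 and 24.8 CPM in WT and 108 and 90.4 CPM in cKO (log2 change 1.66, SE 0.22, adjusted p 0.0144), and this call was lost when either cKO library was left out. Camk2d, a calcium/calmodulin-dependent kinase subunit, had 30.4 and 34.1 CPM in WT and 79.1 and 85.3 CPM in cKO (log2 change 1.35, SE 0.11, adjusted p 0.00175).

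The other highest genes had log2 changes between 1.36 and 1.80 (edgeR). They were Galnt15, a mucin-type glycosyltransferase (1.80), Cnn2, the actin-binding calponin 2 (1.73), Zfand4 (1.71), the mucin gene Muc1 (1.67), Ccdc40, needed to build motile cilia (1.52), and the X-linked gene Armcx5 (1.36). Levels of Muc1 and Zfand4 were low, at 1.65 to 5.72 and 2.36 to 8.77 CPM over the libraries. Cnn2 lay at 6.21 and 6.97 CPM in WT and 22.2 and 21.6 CPM in cKO, and its new peak overlapped cKO H3K27me3 of fold 4.67. Ccdc40 lost its call without WT replicate 2 and Galnt15 when either cKO library was left out. Ccdc40 is a ciliated-cell gene, and the choroid plexus and ependyma markers named above were high in 1 cKO library. Their part in its change was not tested.

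Of the genes lower at P21, 10 are likewise named by size of change. Grm2, a presynaptic metabotropic glutamate receptor of dentate granule neurons, had 84.5 and 84 CPM in WT and 17.1 and 16.5 CPM in cKO at P21, a 0.200-fold level with no overlap (log2 change -2.33, SE 0.11, adjusted p 0.000246, edgeR). Its new peak (chr9:106655528-106656104, fold 5.29) lay just downstream of the printed promoter and also overlapped a cKO H3K27me3 peak of fold 4.74. The related receptor gene Grm3 had 23.8 and 23.4 CPM in WT and 9.64 and 9.48 CPM in cKO (log2 change -1.30, SE 0.14, adjusted p 0.00342). Dsp, which encodes the junction protein desmoplakin and marks dentate granule neurons, had 66.6 and 86.2 CPM in WT and 25.4 and 14.8 CPM in cKO (log2 change -1.92, SE 0.30, adjusted p 0.0353). The Dsp call was lost when either WT library was left out and without the filter on low counts, and its new peak overlapped cKO H3K27me3 of fold 9.72. The dentate marker list as a whole had 7 of 13 genes lower and none higher at P21, and its summed level, given above, was lower in both cKO libraries. The part of granule cell number was not tested.

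The other lowest genes were Gamt, an enzyme of creatine synthesis (-1.87), Gpr3, a receptor active without ligand (-1.33), Rasl10a, a Ras-like gene (-1.32), the collagen gene Col11a2 (-1.31) and Lxn, the carboxypeptidase inhibitor latexin (-1.19). Gamt had 13.2 and 11.4 CPM in WT and 3.52 and 3.21 CPM in cKO, with no overlap (adjusted p 0.00349, edgeR). The new peak at Rasl10a overlapped cKO H3K27me3 of fold 5.45, so 3 of the 10 genes named as higher and 3 of the 10 named as lower had such an overlap. Gpr3 lost its call without WT replicate 2. In the fit of all 10 RNA libraries, which shares 1 estimate of spread between the ages, Dsp, Gpr3, Rasl10a, Fos, Nr4a3, Homer2 and Cnp among the lower genes named here and Camk2d, Cnn2, Galnt15, Sox2 and Wfs1 among the higher ones did not pass.

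New peaks stood on the promoters of 5 of the 14 immediate early genes that have a window, beside 10.6% of all genes with a window. Most genes behind that share have no cKO H3K4me3 on the window, which the rule requires. Among genes with it, 5 of 13 immediate early genes (38.5%) had a new peak, beside 23.9% of all 11904. These genes are switched on within minutes of neuronal activity. Fos, a subunit of the AP-1 factor, had 28.3 and 38.7 CPM in WT and 12.6 and 14.3 CPM in cKO at P21 (log2 change -1.31, SE 0.17, adjusted p 0.00784, edgeR). Nr4a1, an orphan nuclear receptor, had 133 and 153 CPM in WT and 52.7 and 59.4 CPM in cKO (log2 change -1.35, SE 0.12, adjusted p 0.00229). Neither gene's groups overlapped, and each promoter carried an H3K27ac peak called only in cKO, of fold 5.29 at Fos and 5.5 at Nr4a1. Nr4a3, named after its values were seen, had 165 and 168 CPM in WT and 129 and 110 CPM in cKO (log2 change -0.48, adjusted p 0.0471), and its call was lost when either WT library or cKO replicate 2 was left out. Dusp1, a MAP kinase phosphatase, went the other way, with 21.1 and 26.7 CPM in WT and 35.4 and 37.7 CPM in cKO (log2 change 0.61, adjusted p 0.0459), a call lost when either WT library or cKO replicate 2 was left out. The growth factor gene Bdnf did not pass (log2 change -0.60, adjusted p 0.121). Over the whole list of 18 immediate early genes, 11 were lower and 1 was higher at P21.

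New peaks also stood on 5 of the 16 cholesterol synthesis genes with a window, and 4 of these 5 were lower at P21. All 16 had cKO H3K4me3 on the window, and the share of 31.2% stands beside 23.9% of all genes with it. Idi1, the isopentenyl diphosphate isomerase, had 54.8 and 53.8 CPM in WT and 27.7 and 22.8 CPM in cKO (log2 change -1.10, SE 0.13, adjusted p 0.00481, edgeR). Msmo1, a sterol oxidase, had 78.7 and 76 CPM in WT and 36.7 and 34.6 CPM in cKO (log2 change -1.12, SE 0.10, adjusted p 0.00231). Sc5d, a sterol desaturase, had 75.7 and 69.1 CPM in WT and 39.5 and 35.9 CPM in cKO (log2 change -0.94, SE 0.11, adjusted p 0.0051). In all 3 the cKO libraries were at about the same distance below WT, with no overlap, and their new peaks had folds of 7.6, 8.63 and 4.63. Dhcr7, the last enzyme of one branch, was named after its values were seen and had a smaller change (log2 change -0.54, adjusted p 0.0356), a call lost when either WT library was left out. Pmvk, phosphomevalonate kinase, did not pass (log2 change -0.23, adjusted p 0.38). Over the whole list 14 of 22 genes were lower and none higher, so genes of the list without a new peak were lower as well. Oligodendrocytes make much of the sterol of the young brain, and the oligodendrocyte lineage markers summed to 7938 to 8525 CPM in WT and 4668 to 5055 CPM in cKO libraries. Their part in these changes was not tested. Of those markers only Cnp, a myelin enzyme gene, had a new peak (RNA log2 change -1.14, adjusted p 0.00215), and it did not pass in the fit of all 10 RNA libraries (adjusted p 0.0538, edgeR).

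**Figure D5:**
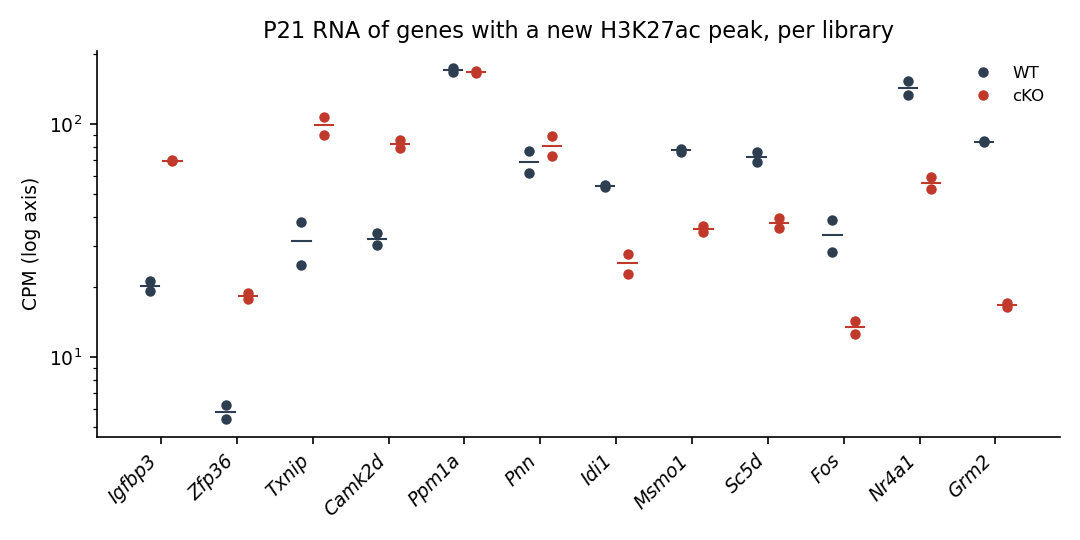
RNA level at P21 in CPM (log axis) of 12 genes with a new H3K27ac peak on the promoter, with 1 point per library (2 WT and 2 cKO) and a bar at each group mean. Ppm1a and Pnn, under strong new peaks, have overlapping groups, the 4 genes at the left are higher in cKO, and the 6 at the right are lower.

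Several lists of housekeeping genes had members with a new peak and no RNA past the test. Calls were few among all tested genes with a new peak as well, at 2.65% higher and 2.92% lower at P21. The lack of a call in lists this small is thus no finding. New peaks stood on the promoters of 23 of 76 genes with a ribosomal protein symbol (2 of them, Rps6ka1 and Rps6kc1, encode kinases that match by symbol only), and none of the 23 passed at P21. They stood on 17 of 69 mitochondrial ribosome genes, 7 of 33 RNA polymerase II and Mediator genes, 8 of 29 splicing factor genes, 6 of 33 proteasome genes and 6 of 42 respiratory complex I genes, again with none past the threshold at P21 (edgeR). Of the 74 zinc finger genes with a new peak, among 336 with a window, only Zfp36 passed. Of 9 primary cilium genes with a new peak, among 29, only Ift22, an intraflagellar transport subunit, passed, with 33.3 and 35.7 CPM in WT and 23.9 and 23.7 CPM in cKO (log2 change -0.54, adjusted p 0.0373). The Ift22 call was lost when either WT library was left out. These lists hold mostly genes with CpG-rich promoters and H3K4me3, which the rule requires. Among list genes with cKO H3K4me3 on the window, shares with a new peak ran from 15% (complex I) and 18.8% (proteasome) to 34.4% (ribosomal protein symbols). Of all genes with it, 23.9% had a new peak.

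Among genes of the chromatin machinery, new peaks stood on the promoters of 5 of 24 BAF complex subunits, among them Smarcd3, Phf10 and Pbrm1, of 2 of 12 writers and erasers of H3K27ac, the deacetylase genes Hdac5 and Hdac9, and of 4 of 17 writers and erasers of H3K4me3 and H3K27me3, namely Rbbp5, Dpy30, Kdm2b and Suz12. No RNA of these 11 genes passed the test at either age (edgeR), which is no finding in lists this small. In the same order, the shares among list genes with cKO H3K4me3 on the window were 22.7%, 18.2% and 25%, beside 23.9% of all such genes. Smarcd3, the BAF60C subunit, had a P21 log2 change of 0.44 (adjusted p 0.116).

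Cell identity lists are small, so the lack of an RNA call in them is no finding, and they are read beside all genes. A new peak stood on 10.6% of those with a window and 23.9% of those with cKO H3K4me3 on it. CA field pyramidal neuron markers held new peaks at 5 of 12 promoters, of which Wfs1, which encodes wolframin, was higher at P21, with 222 and 232 CPM in WT and 413 and 575 CPM in cKO (log2 change 1.12, SE 0.16, adjusted p 0.0108, edgeR). Wfs1 did not pass in the fit of all 10 RNA libraries (adjusted p 0.125). New peaks stood on 3 of 12 dentate granule neuron promoters (Dsp, Npnt and Glis3), where Dsp alone passed at P21, and on 3 of 8 thalamic neuron promoters (Prkcd, Rora and Zfhx3), with none past the threshold. GABAergic interneuron markers held 3 of 15 (Gad1, Cnr1 and Erbb4), all 3 also with cKO H3K27me3 and none past the threshold. Of 4 glutamatergic synapse genes with a new peak, among 15, Homer2, a postsynaptic scaffold gene, was lower (log2 change -0.44, adjusted p 0.0427), a call lost when either WT library was left out. Oligodendrocyte lineage and astrocyte markers held 1 of 12 each (Cnp and Fgfr3). Striatal neuron markers held 1 of 8 (Foxp1), and neural stem cell and neuroblast markers 1 of 13 (Sox2). In the oligodendrocyte and astrocyte lists alike, 7 of 12 promoters had no cKO H3K4me3, and the share among those with it was 20%. That share was 10% for stem cell, 12.5% for striatal and 28.6% for glutamatergic synapse genes. It was 30% for dentate and GABAergic markers and 50% for CA field and thalamic markers. No new peak stood on a window of the 56 developmental transcription factors, the 25 Hox genes, the 9 microglia markers, the 9 endothelial and mural markers, the 7 choroid plexus and ependyma markers or the 7 meningeal fibroblast markers. Of the 25 Hox genes, 24 had no cKO H3K4me3 peak on the window, and neither had any of the 9 microglia genes, so the rule could hardly take these. Endothelial and mural, choroid plexus and ependyma, and meningeal lists had only 3, 4 and 3 genes with one. Of the 56 developmental factors 29 had one, 28 of them without an H3K27ac peak. None of the 29 had a new peak, beside 23.9% of all genes with cKO H3K4me3 on the window.

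At E16.5, weeks before the chromatin was sampled, few of these genes passed the same test. Of 2536 tested, none was higher, beside 0.0118% of all genes, and 2 were lower (0.0789%), beside 0.112% (edgeR). At an unadjusted p under 0.05, 267 were higher and 278 lower, 21.5% of those tested beside 20.6% of all genes. DESeq2 gave 58 higher and 90 lower, or 2.32% and 3.6%, beside 2.22% and 4.5% of all genes. The median log2 change was 0.019, beside -0.010 over all genes tested.

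The 2 lower genes were Hpca, the neuronal calcium sensor hippocalcin, and Cdc42ep1, an effector of the GTPase Cdc42. Hpca had 71.6, 71.2 and 77 CPM in the WT and 49.2, 48.2 and 45.9 CPM in the cKO libraries at E16.5 (log2 change -0.62, SE 0.06, adjusted p 0.0376, edgeR). Cdc42ep1 had 32.4, 22.7 and 22.6 CPM in WT and 6.28, 6.73 and 8.24 CPM in cKO (log2 change -1.87, SE 0.19, adjusted p 0.0413). No library of one group reached into the other for either gene, but both calls were lost when any 1 of the 6 libraries was left out. Cdc42ep1 also carried cKO H3K27me3 of fold 9.02 at its new peak. Summed meningeal fibroblast markers, given above, were lower in all 3 cKO than in all 3 WT libraries, and their part in these values was not tested.

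Genes with both a new peak and H3K27me3 had a median RNA change below 0 at E16.5, but few of them passed the test. On 220 genes with a new peak a cKO H3K27me3 peak also overlapped the window, and 189 of them were tested at E16.5. Of these, 2 (1.06%) were lower, the Hpca and Cdc42ep1 named above, and none higher (edgeR). Their median log2 change was -0.28, and 31.7% had all 3 cKO libraries below all 3 WT libraries, beside 15.3% of all genes. Genes with a new peak and no H3K27me3 had a median of 0.03 and a share of 13.3%. Genes with only a shared peak and cKO H3K27me3 on the window had a median of -0.16 and a share of 26.7%, and all genes without a new peak but with cKO H3K27me3 there had -0.48 and 27.2%. Summed markers of several cell types, but not of all, were also lower in all 3 cKO than in all 3 WT libraries at E16.5. Astrocyte markers summed to 804 to 1034 CPM in WT and 274 to 530 CPM in cKO, oligodendrocyte lineage markers to 240 to 306 and 126 to 191, microglia markers to 120 to 218 and 56.5 to 87.9, and endothelial and mural markers to 269 to 597 and 189 to 229, beside the meningeal sums given above. Dentate granule (184 to 224 in WT and 78.3 to 147 in cKO) and GABAergic interneuron markers (1524 to 1787 and 1312 to 1510) were lower too. Groups overlapped for CA field (1300 to 1772 in WT and 1448 to 3305 in cKO), striatal (357 to 466 and 441 to 571) and thalamic neuron markers. They also overlapped for stem cell (5418 to 6201 and 6098 to 8011) and choroid plexus and ependyma markers. The part of cell types in these medians was not tested. At P21 the 195 tested genes with both marks had 9 higher and 13 lower (4.62% and 6.67%), and the genes with cKO H3K27me3 and no new peak had 6.7% and 6.61%.

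The cKO effect differed between the ages for 34 of the 2586 genes tested in a fit of all 10 RNA libraries. It was more positive at P21 for 12 (0.464%), beside 0.427% of all genes, and more negative for 22 (0.851%), beside 0.738% (edgeR). Idi1, Msmo1 and Sc5d were among the 22, with differences of -1.11, -1.04 and -1.02 on the log2 scale. At E16.5 Msmo1 had 88.1, 92.5 and 99.5 CPM in WT and 84, 87.4 and 87.3 CPM in cKO, a narrow gap beside that at P21.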

How the data were processed

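Hippocampus of WT and Arid1a cKO mice was profiled by ChIP-seq (8 libraries) and polyA RNA sequencing (10 libraries), and groups were taken from the sample titles. The members, gene lists and tests used here were chosen with earlier results of these data known. Per the series design, RNA replicates were biological and ChIP-seq had none. Separate animals are not named, so p-values measure only the spread between these samples.

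Each mark and genotype has 1 deposited peak list, called against that genotype's input, per the file headers. Reads were aligned with Bowtie2 2.3.5.1 to GRCm38, per the submitters' processing notes. These notes name MACS2 2.2.5, while the headers give MACS 2.2.7.1 with narrow calling at a q-value of 0.01. The deposited columns are the authors' pileup signal, fold enrichment ratio over input, and −log10 p-values and q-values. Folds were used only within a list. Overlap meant at least 1 bp, and the overlap code was checked against bedtools 2.31.1. Promoter windows and sequences came from a RefSeq table (GRCm38.p6) that holds 79.9% of RefSeq protein-coding genes, and no window on 1 autosome. TATAAA was most frequent just before the start for genes of both strands, so window sequences were read as given on the gene's strand.

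For RNA the authors deposited estimated counts per gene from Salmon 1.0.0, per the submitters' processing notes, and the library totals ranged from 20089631 to 20332148 (P21) and from 17662335 to 19760764 (E16.5). Counts were rounded and tested per age with edgeR 4.0.16 under R 4.3.3, using filterByExpr, TMM scaling, the robust quasi-likelihood F test, Benjamini-Hochberg adjustment over all genes and a threshold of 0.05. Standard errors (SE) are approximate. The difference between ages was a contrast in 1 fit of the 10 libraries. The pipeline was tested on simulated data. The authors' deposited tables of log2 fold changes, p-values and baseMean score, made with DESeq2 1.26.0 (submitters' processing notes), served only to pair gene IDs with symbols. The strandedness of counting was not stated.

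Genes were named by rule: the 12 new peaks of highest fold with a named gene, 3 on each side of the rule's limit (1 just inside it is not reported here), the 10 highest and 10 lowest P21 changes (up to 5 at E16.5) among genes past the threshold with groups that do not overlap and at least 5 CPM in the higher group, up to 3 genes per list, and the 5 peaks with most H3K27me3 and the 5 without WT H3K4me3. Nr4a3, Bdnf, Pmvk and Dhcr7, the other list members beyond 3 per list (such as Dpy30) and the printed promoters were chosen after their values were seen. Alternatives were other scalings, DESeq2 1.42.0, no filter, leaving out each library, a replicate block, and other overlap and gene rules.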

Additional observations from a re-analysis of the deposited data

Results flagged for a closer look

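For 11 named genes with a new promoter-type H3K27ac peak, the cKO effect differed between P21 and E16.5 in 1 fit of the 10 RNA libraries (edgeR, adjusted p over all 18979 genes). The values below are the log2 effect at P21 minus that at E16.5. It was more positive at P21 for Zfp36 by 2.39 (adjusted p 0.0363), Txnip by 2.32 (0.0304), Zfand4 by 1.79 (0.0296), Armcx5 by 1.34 (0.0255) and Hpca by 0.90 (0.033). Zfp36 had 8.42, 4.62 and 4.77 CPM in WT and 4.26, 2.71 and 3.4 CPM in cKO at E16.5, where Txnip had 111, 71.6 and 75.2 CPM in WT and 62.9, 47.7 and 48.4 CPM in cKO. In cKO both thus had values below WT at E16.5 and above it at P21, but neither passed the test at E16.5 alone (edgeR). For Hpca the E16.5 effect alone passed the test (log2 change -0.62), and at P21 its value was 0.32 (adjusted p 0.165, edgeR).

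The effect was more negative at P21 for the collagen gene Col11a2 (-1.67, adjusted p 0.0137, edgeR), for Idi1 (-1.11, 0.0301), Msmo1 (-1.04, 0.0124) and Sc5d (-1.02, 0.0296) of cholesterol synthesis, for Ift22 (-0.63, 0.0482) and for the splicing factor Srsf7 (-0.58, 0.0332). Col11a2 had 11.7, 14 and 11 CPM in WT and 15.1, 15.1 and 15.6 CPM in cKO at E16.5, against 30.7 and 28.4 and then 12.9 and 11 CPM at P21. Srsf7 passed the test at neither age alone.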

How the results depend on the processing

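No paired reading of the replicate numbers was made, since deviations of same-numbered WT and cKO libraries had correlations of -0.02 at P21 and -0.262, -0.079 and -0.541 at E16.5. With the replicate block, 41 genes were higher and 46 lower at P21 (1.6% and 1.79% beside 2.07% and 2.88% of all genes), and 0 were lower at E16.5. Over the fits that left out 1 library, P21 counts ran from 17 to 205 higher and 35 to 204 lower with medians of -0.006 to 0.019, and E16.5 counts were 0 lower throughout. At P21 the shares of all tested genes rose or fell together with these. A lone library left in a P21 group is assumed to vary like the other group. DESeq2 gave 58 higher and 90 lower at E16.5, and at P21 it called 133 of edgeR's 143 genes. The fit of all 10 RNA libraries gave 24 higher and 56 lower at P21 (median -0.004), or 0.928% and 2.17% beside 0.817% and 1.84% of all genes. At E16.5 it gave 3 higher and 17 lower (median 0.037), or 0.116% and 0.657% beside 0.169% and 0.769%. No filter on low counts gave 123 and 156 at P21 (4.6% and 5.84% beside 2.9% and 3.87% of all genes, above the all-gene shares) and 2 and 15 at E16.5 (0.0748% and 0.561% beside 0.0717% and 0.314%). Upper-quartile scaling gave a P21 median of 0.066 and 1 lower gene at E16.5. Requiring no WT H3K27ac peak within 1 kb left 5815 peaks, with 89.7% on WT H3K4me3 and 12.8% and 1.77% on cKO and WT H3K27me3. It gave 44 higher and 48 lower genes at P21, of 1648 tested (2.67% and 2.91%), and 1 lower at E16.5. A cKO list as long as the WT list left 3944 peaks, with 94.9%, 8.34% and 1.01%. It gave 42 higher and 39 lower genes at P21, of 1581 tested (2.66% and 2.47%), and 1 lower at E16.5. Keeping only peaks on H3K4me3 peaks without WT H3K27ac gave 89.1%, 11.3% and 1.54%, and 1 lower gene at E16.5; this alternative was chosen after seeing the data. Counting an overlap only when 50% of the peak was covered gave 86.3%, 8.1% and 0.97%, membership at 50% coverage by cKO H3K4me3 gave 93.2% on WT H3K4me3, and a −log10 q of at least 5 gave 92.2%. Assigning genes with an end within 1 kb of the peak gave 134 higher and 176 lower at P21 and 1 lower at E16.5. This tested 5419 genes at P21, with 2.47% higher and 3.25% lower. A summit within 1 kb of a start, also chosen after seeing the data, gave 118, 128 and 5. It tested 4546 genes at P21 (2.6% and 2.82%). The main rule tested 2565 (2.65% and 2.92%), beside 2.81% and 3.91% of all genes. These counts thus rose with the number of genes tested, while the shares moved less. The cause of the other shifts was not tested. Of the single-gene values under these alternatives, 276 stayed on the same side of the threshold and 58 lost their call, and none changed direction. With the block, Dhcr7, Homer2, Ift22, Nr4a3, Sox2, Cdc42ep1 and Hpca lost their calls. Peak comparisons have no replicate check.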
